A study of Homo sapiens with 12 samples.

Results

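The genes examined here encode the enzymes that draw on isoprenoid diphosphates outside the sterol branch. They were taken as a list of 10 genes out of 20090 protein-coding genes, namely GGPS1, FNTA, FNTB, PGGT1B, RABGGTA, RABGGTB, DHDDS, PDSS1, PDSS2 and COQ2. A gene was scored for a promoter region in a library when a deposited region overlapped the stretch that runs from 1000 bp before a transcript start to 100 bp past it, for any start in the annotation, and regions from 10 kb upstream to 10 kb downstream of each gene were also collected. The study mapped SREBP2, RORγ and the histone mark H3K27ac by chromatin immunoprecipitation sequencing (ChIP-seq) in HCC70, an established human triple-negative breast cancer cell line. Cells received vehicle or XY018, an antagonist of the nuclear receptor RORγ, for 24 h. Its dose was 5 µM in the sample labels and lower in the study's own methods. Each antibody and treatment was represented by 1 library, so that no difference between treatments has a replicate check and no p-value was computed. Both arms used the same line, and the RORγ antibody was a rabbit serum.

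Farnesyl diphosphate, made by the mevalonate pathway, is the branch point for all of these enzymes. Farnesyltransferase attaches it to carboxyl-terminal cysteines of proteins such as Ras, and after its extension to geranylgeranyl diphosphate other prenyltransferases attach that group to Rab and related proteins. It is also lengthened into the chains of dolichol, the carrier of N-linked sugars, and of ubiquinone, the electron carrier of mitochondria. SREBP2 is the transcription factor that turns on the mevalonate pathway when sterols are low, RORγ is a nuclear receptor, and H3K27ac marks active promoters and enhancers.

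The 6 lists held between 69700 regions (SREBP2 with XY018) and 167264 regions (RORγ with vehicle). The fragment number at the summit of a region, that is the number of sequenced fragments stacked there, was recovered from the deposited values as a whole number for 98.7% to 100% of regions. The genome background of the vehicle and XY018 libraries was 1.03 and 1.21 fragments for SREBP2, 0.787 and 0.712 for RORγ, and 1.17 and 1.07 for H3K27ac, and XY018 to vehicle ratios below are ratios of summit fragments after division by these values. Their 95% intervals cover counting error at 2 given summits and nothing else. H3K27ac regions marked the promoters of the epithelial genes EPCAM, KRT8, KRT18 and KRT5, and none was present at the leukocyte genes PTPRC and CD3E, but regions were also present at ERBB2 and COL1A1. Of the 2 hormone receptor genes, PGR carried no H3K27ac region and ESR1 carried 10 fragments with vehicle and 13 with XY018.

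Sequences under SREBP2 regions of the list with many and with few fragments are shown first, and no relation of their bases to the fragment number was tested. All are of the human reference, and capitals mark matches on either strand to the E-box CACGTG, the CCAAT box CCAAT, the GC box GGGCGG, the nuclear receptor half-site AGGTCA or the sterol regulatory element TCACNCCAC. The first 3 are windows of 131 bases around the SREBP2 summit with vehicle on the plus strand of GRCh37 (hg19), none of which overlaps an exon of its gene. They lie at chr1:235490818-235490948 in an intron of GGPS1, at chr1:26758582-26758712 upstream of DHDDS and at chr5:114601113-114601243 upstream of PGGT1B.
GGPS1 site: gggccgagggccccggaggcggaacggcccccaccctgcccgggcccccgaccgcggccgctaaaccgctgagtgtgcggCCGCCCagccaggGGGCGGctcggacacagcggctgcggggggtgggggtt
DHDDS site: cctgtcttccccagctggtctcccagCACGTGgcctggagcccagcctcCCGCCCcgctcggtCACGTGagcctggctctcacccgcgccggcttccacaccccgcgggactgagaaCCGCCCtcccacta
PGGT1B upstream site: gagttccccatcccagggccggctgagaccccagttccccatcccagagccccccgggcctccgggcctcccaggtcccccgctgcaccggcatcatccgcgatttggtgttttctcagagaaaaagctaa
The GGPS1 window, with 54 fragments with vehicle, had 80.9% G and C and 2 GC boxes. The DHDDS window, with 10 fragments, held 2 E-boxes and 2 GC boxes, and E-boxes are elements that SREBP2 and other helix-loop-helix factors can bind. The PGGT1B window, with 28 fragments, had 64.9% G and C and none of the searched elements. Wider windows of 201 bases around the summits of all SREBP2 promoter regions with vehicle had a median of 71.6% G and C. Of these wider windows, 57.3% held a GC box and 5.4% an E-box.

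For the genes whose summits fell on exons, the promoter of the RefSeq gene (GRCh38.p14 table, 250 bases before to 50 after the start) is shown instead on the strand of the gene. Each matched GRCh37 exactly once near its gene, at chr10:26986380-26986679 on the plus strand (PDSS1), chr14:24740784-24741083 on the minus strand (RABGGTA) and chr4:84205902-84206201 on the minus strand (COQ2).
PDSS1 promoter: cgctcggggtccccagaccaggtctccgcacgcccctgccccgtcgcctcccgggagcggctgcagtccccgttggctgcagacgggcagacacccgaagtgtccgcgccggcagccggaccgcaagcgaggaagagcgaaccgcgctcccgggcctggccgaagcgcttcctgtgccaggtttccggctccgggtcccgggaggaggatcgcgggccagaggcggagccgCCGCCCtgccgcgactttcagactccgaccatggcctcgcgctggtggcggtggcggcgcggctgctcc
RABGGTA promoter: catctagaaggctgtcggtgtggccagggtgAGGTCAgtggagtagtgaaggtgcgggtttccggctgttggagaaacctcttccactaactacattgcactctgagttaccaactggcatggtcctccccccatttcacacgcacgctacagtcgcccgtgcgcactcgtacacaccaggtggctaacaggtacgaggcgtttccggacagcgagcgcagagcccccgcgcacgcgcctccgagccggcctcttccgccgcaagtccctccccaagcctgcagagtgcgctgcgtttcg
COQ2 promoter: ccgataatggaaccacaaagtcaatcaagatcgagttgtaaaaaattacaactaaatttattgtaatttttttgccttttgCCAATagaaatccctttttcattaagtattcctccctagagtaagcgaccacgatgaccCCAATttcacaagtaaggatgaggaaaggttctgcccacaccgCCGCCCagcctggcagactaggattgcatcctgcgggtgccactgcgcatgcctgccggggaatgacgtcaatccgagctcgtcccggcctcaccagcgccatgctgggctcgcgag
The SREBP2 summits with vehicle lay 123, 176 and 149 bp downstream of these starts. COQ2 carried 2 CCAAT boxes and 1 GC box, PDSS1 a GC box, and RABGGTA 1 nuclear receptor half-site at −219 bp, outside its RORγ regions. Among 9 matched members, 3 promoters held a CCAAT box, 5 a GC box, 1 an E-box and 1 a half-site, while 36.6%, 59.2%, 8.89% and 11.5% of 15288 RefSeq promoters of that length did. The ETS core CCGGAA and the NRF1 half-site TGCGCA, which are not in capitals above, were each held by 3 of the 9, against 23.1% and 10.8% of all promoters. None of the 9 held the sterol regulatory element or the full ROR response element, which 1.18% and 0.353% of all promoters held. Within 201 bases around the SREBP2 summit with vehicle, the sterol regulatory element was also missing in all 8 members with a region, and in that library 0.974% of 23201 promoter regions held it. The windows around the SREBP2 summits of PDSS1 in both treatments, 12 bp apart, held 1 half-site and 1 CCAAT box each. So did those around the vehicle RORγ summits of PDSS1 and FNTB. The window of the XY018 RORγ summit of DHDDS held 1 half-site, and that of FNTB 1 sterol regulatory element. Of all RORγ promoter regions, 9.43% with vehicle and 8.86% with XY018 held a half-site, and 0.987% with XY018 the sterol regulatory element. An absent match says only that these letters were not in the window. The median G and C content of the 9 promoters was 61.0%, against 63.0% over all promoters.

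SREBP2 regions were found at the promoters of 8 of the 10 genes with vehicle and of 5 with XY018, where 70.6% and 62.7% of all protein-coding genes had one. RORγ regions were found at 8 and 6 genes, against 62.7% and 61.5% of all genes. H3K27ac regions were found at 10 and 9 genes, against 66.8% and 68% of all genes. GGPS1, FNTA, RABGGTA and PDSS1 had a region in all 6 libraries, as did 46.3% of all genes. The lists held weak calls, and with q of at most 1e-05 the SREBP2 counts were 4 and 3, and RORγ with XY018 was counted at 3 genes. With the vehicle and XY018 lists cut to equal length, the SREBP2 counts were 6 and 5. With 5000 bp to either side of a start SREBP2 with XY018 was counted at 8 genes, and with starts of protein-coding transcripts alone RORγ with vehicle was counted at 5. The counts at these other settings have no share over all genes beside them. Whether their shifts are particular to the members was not tested. The genes missing an SREBP2 region with XY018 but not with vehicle were FNTB, DHDDS and PDSS2, whose vehicle regions held only 7 to 10 fragments, and PGGT1B and RABGGTB had none in either library.

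**Figure D1:**
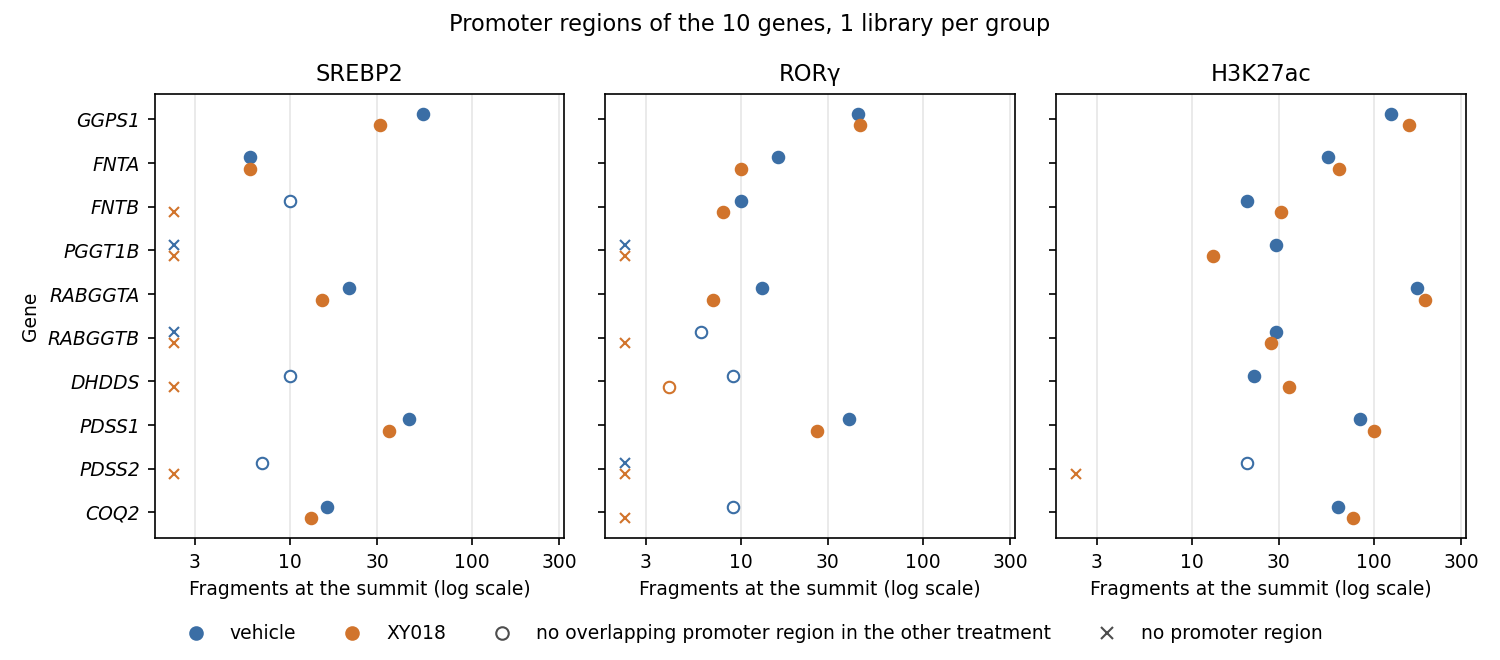
Fragments at the summit of the promoter region (horizontal axes, log scale) of the 10 genes (vertical axis) for SREBP2, RORγ and H3K27ac, with 1 library per point. Filled points are overlapping pairs of regions, open points have no overlapping promoter region in the other treatment, and crosses mark the absence of a promoter region. GGPS1 and PDSS1 carried the most fragments of both factors, and RABGGTA the most H3K27ac fragments.

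GGPS1 encodes geranylgeranyl diphosphate synthase, which makes the donor used for Rab proteins, and lies at chr1:235490665-235507847 on the plus strand. Its promoter carried 54 SREBP2 fragments with vehicle and 31 with XY018. The ratio was 0.486 with an interval of 0.302 to 0.770, which leaves out 1. Among the 5 paired members GGPS1 alone had an SREBP2 interval below 1, as did 36.8% of all paired promoters, and scaling by tags per kb in place of the background gave 0.539. The deposited fold enrichment went from 20.0 to 7.71, while the local background of the summit was 1.76 fragments with vehicle and 3.15 with XY018. RORγ stood at 44 fragments with vehicle and 45 with XY018, a ratio of 1.13 with an interval of 0.729 to 1.75. H3K27ac was 124 and 156 fragments, a ratio of 1.38 with an interval of 1.08 to 1.76. The SREBP2 and RORγ summits were 151 bp apart with vehicle, and the SREBP2 summits of the 2 treatments were 225 bp apart. A second SREBP2 region with XY018, of 9 fragments at −487 bp, also overlapped the vehicle region. By these pairs of summits GGPS1 had a lower SREBP2 pileup with XY018 where the RORγ pileups differed by 1 fragment and H3K27ac was higher. The median ratios over all paired promoters were 0.621, 0.967 and 1.27, so lower SREBP2 and higher H3K27ac were not particular to GGPS1. The start of ARID4B, a gene of the opposite strand, lies 137 bp from that of GGPS1, a readthrough gene shares the GGPS1 start, and reads of these promoters cannot be told apart.

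FNTA encodes the subunit shared by farnesyltransferase and geranylgeranyl transferase I and lies at chr8:42889337-42940931 on the plus strand. Its main cluster of starts carried 56 H3K27ac fragments with vehicle and 64 with XY018, a ratio of 1.25 (0.861 to 1.83). The overlapping SREBP2 regions there held 6 and 6 fragments, with a ratio of 0.847 and an interval from 0.226 to 3.17, and a further SREBP2 region of 9 fragments in the same acetylated stretch was present with vehicle alone. RORγ at this place held 5 fragments with vehicle and 10 with XY018, a ratio of 2.21 (0.688 to 8.24). The strongest RORγ pair of the gene lay elsewhere, at −1136 and −1102 bp from an outlying start, with 16 and 10 fragments and a ratio of 0.691 (0.280 to 1.62). An SREBP2 pair of 9 and 7 fragments lay at the same place, with a ratio of 0.659 (0.208 to 1.99), and no H3K27ac region was present there. The counts at FNTA were low enough that changes of several fold in either direction lie within these intervals.

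FNTB encodes the catalytic subunit of farnesyltransferase, which acts on Ras proteins and lamins, and lies at chr14:65453613-65529370 on the plus strand. H3K27ac at its start was 20 fragments with vehicle and 31 with XY018, a ratio of 1.70 (0.938 to 3.14). SREBP2 was called with vehicle alone, with 10 fragments. RORγ held 10 and 8 fragments, a ratio of 0.884 (0.303 to 2.49). Both factor regions lay near starts inside the gene and away from the acetylated one, so FNTB had neither factor at its acetylated start. With XY018 an H3K27ac region of 9 fragments was called over the place of the vehicle SREBP2 region. An annotated miRNA starts 823 bp from a start of FNTB.

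PGGT1B encodes the catalytic subunit of geranylgeranyl transferase I, which modifies small GTPases, and lies at chr5:114539709-114598574 on the minus strand. It had no SREBP2 or RORγ region in the promoter window in any library. H3K27ac was 29 fragments with vehicle and 13 with XY018, a ratio of 0.491 with an interval of 0.234 to 0.975, and 0.559% of all paired promoters had a lower ratio. By the pair with the most fragments of each gene, PGGT1B was the only member with an H3K27ac ratio below 1, and its interval reaches close to 1. Weaker promoter pairs of RABGGTB (0.567 and 0.657), FNTB (0.822) and DHDDS (0.923) were also below 1, and that of GGPS1 was 1.51. A long noncoding RNA of the opposite strand starts 346 bp away. Just past the window, 232 bp downstream of the start and on the acetylated stretch, an SREBP2 region of 12 fragments was called with vehicle alone. A stronger site stood upstream of the gene, with SREBP2 summits at −2604 and −2555 bp from the start. SREBP2 there was 28 fragments for vehicle and 23 for XY018, a ratio of 0.696 (0.383 to 1.25), and RORγ was 20 and 17 fragments, a ratio of 0.940 (0.462 to 1.89). That site carried both factors in both treatments and overlapped no H3K27ac region.

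RABGGTA and RABGGTB encode the subunits of the Rab geranylgeranyl transferase, which acts on Rab proteins held by an escort protein. At RABGGTA (chr14:24734744-24740817, minus strand) SREBP2 was 21 fragments with vehicle and 15 with XY018, a ratio of 0.605 (0.290 to 1.23). RORγ was 13 and 7 fragments, a ratio of 0.595 (0.201 to 1.61). H3K27ac was 173 and 191 fragments, the highest of the list, with a ratio of 1.21 (0.979 to 1.49). The fold enrichment of the SREBP2 region went from 7.98 to 2.79, and its local background was 1.76 fragments with vehicle and 4.72 with XY018. Starts of long noncoding RNAs of the opposite strand lie 18 and 115 bp from that of RABGGTA. For the other subunit, RABGGTB (chr1:76251882-76260771, plus strand), no SREBP2 region was called, and RORγ was called with vehicle alone with 6 fragments at an internal start. Its strongest H3K27ac pair, at −414 and −462 bp, was 29 and 27 fragments, a ratio of 1.02 (0.581 to 1.79). Another promoter pair was 25 and 15 fragments, a ratio of 0.657 (0.322 to 1.30). An H3K27ac region of 18 fragments, with its summit 202 bp past a start, was called with vehicle alone. The small nucleolar RNAs SNORD45A and SNORD45C start 366 and 369 bp from starts of this gene. The subunits of 1 enzyme thus stood apart, with both factors at the acetylated start of RABGGTA and neither at that of RABGGTB.

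DHDDS encodes the chain-elongating subunit of the cis-prenyltransferase that makes the dolichol backbone and lies at chr1:26758773-26797797 on the plus strand. SREBP2 was called with vehicle alone, with 10 fragments at −126 bp from the nearest start, on the window with the E-boxes shown above. RORγ was called at an internal start with 9 fragments with vehicle and 4 with XY018, but the regions did not overlap. H3K27ac was 22 fragments with vehicle and 34 with XY018, a ratio of 1.69 (0.962 to 3.04). The vehicle SREBP2 region fell between 2 H3K27ac regions of the vehicle library and overlapped neither, whereas the H3K27ac region called with XY018 reached over its edge.

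PDSS1 and PDSS2 encode the subunits of the synthase that makes the isoprenoid tail of ubiquinone. At PDSS1 (chr10:26986630-27035727, plus strand) SREBP2 was 45 fragments with vehicle and 35 with XY018, a ratio of 0.659 (0.411 to 1.05). RORγ was 39 and 26 fragments, a ratio of 0.737 (0.431 to 1.24). H3K27ac was 84 and 100 fragments, a ratio of 1.30 (0.966 to 1.76). The SREBP2 and RORγ summits lay 25 bp apart with vehicle and 40 bp apart with XY018, and PDSS1 and GGPS1 were the members with the highest pileups of both factors. PDSS2 (chr6:107473766-107780768, minus strand) had 7 SREBP2 fragments and 20 H3K27ac fragments with vehicle, at −411 and −409 bp from its start, and no promoter region of either kind with XY018. No RORγ region was called at its promoter in either library. PDSS2 counted as the only member without an H3K27ac promoter region with XY018, although that library had one of 13 fragments with its summit 270 bp into the gene, just past the window. A pseudogene (SELENOOLP) and an unconfirmed transcript of the opposite strand start 406 and 76 bp from a start of PDSS1.

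COQ2 encodes the transferase that joins the isoprenoid tail to the ring precursor of ubiquinone and lies at chr4:84182689-84206067 on the minus strand. SREBP2 was 16 fragments with vehicle and 13 with XY018, a ratio of 0.688 (0.304 to 1.53). H3K27ac was 63 and 77 fragments, a ratio of 1.34 (0.947 to 1.90). RORγ held 9 fragments with vehicle, 9 bp from the SREBP2 summit. The overlapping region with XY018 held 5 fragments, a ratio of 0.614 (0.162 to 2.04), and fell just past the promoter window, so that COQ2 counted as lacking a RORγ promoter region with XY018 although both libraries had a region at that site.

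Over the members with overlapping promoter regions in both treatments, the median SREBP2 ratio was 0.659, with 5 of 5 below 1. Over all 12333 such promoters the median was 0.621 and 98.0% were below 1, so the members' lower SREBP2 pileup was near that of promoters in general. A decrease of at least 1.5-fold was seen at GGPS1, RABGGTA and PDSS1, that is 3 of 5, and at 62.2% of all promoters, and an increase of that size at 0 of 5 and at 0.0568%. Scaled by tags per kb, RABGGTA and PDSS1 had 0.670 and 0.730 and fell short of it, while GGPS1 had 0.539. With that scaling the median over all promoters was 0.688. For RORγ the median was 0.737 with 4 of 5 below 1, against 0.967 over 11302 promoters, of which 55.3% were below 1. A decrease of that size was seen for RORγ at RABGGTA alone, against 9.53% of all promoters, and an increase at none, against 7.31%. These RORγ values use for FNTA the pair at the outlying start and for FNTB a pair at an internal start. The weaker FNTA pair at its acetylated start, with a ratio of 2.21, would count as an increase. Using it would raise the RORγ median of the members and leave fewer ratios below 1, so both depend on the choice of pair. For H3K27ac the median was 1.30 with 1 of 9 below 1, against 1.27 over 12877 promoters, of which 19.6% were below 1. PGGT1B alone had a decrease of at least 1.5-fold, which 3.08% of all promoters had, and FNTB and DHDDS had an increase of that size, which 22.6% had. These H3K27ac counts use 1 pair per gene. Of the weaker promoter pairs, those of RABGGTB, at 0.567 and 0.657, would count as decreases and that of GGPS1, at 1.51, as an increase. The ratios of both factors and of the mark could not be tested with 1 library per group, and 3 of the 19 intervals, those of GGPS1 for SREBP2 and H3K27ac and of PGGT1B for H3K27ac, left out 1. Over all paired promoters the interval lay below 1 at 36.8% and above 1 at 0.00811% for SREBP2, at 1.65% and 1.13% for RORγ, and at 1.93% and 36.1% for H3K27ac.

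**Figure D2:**
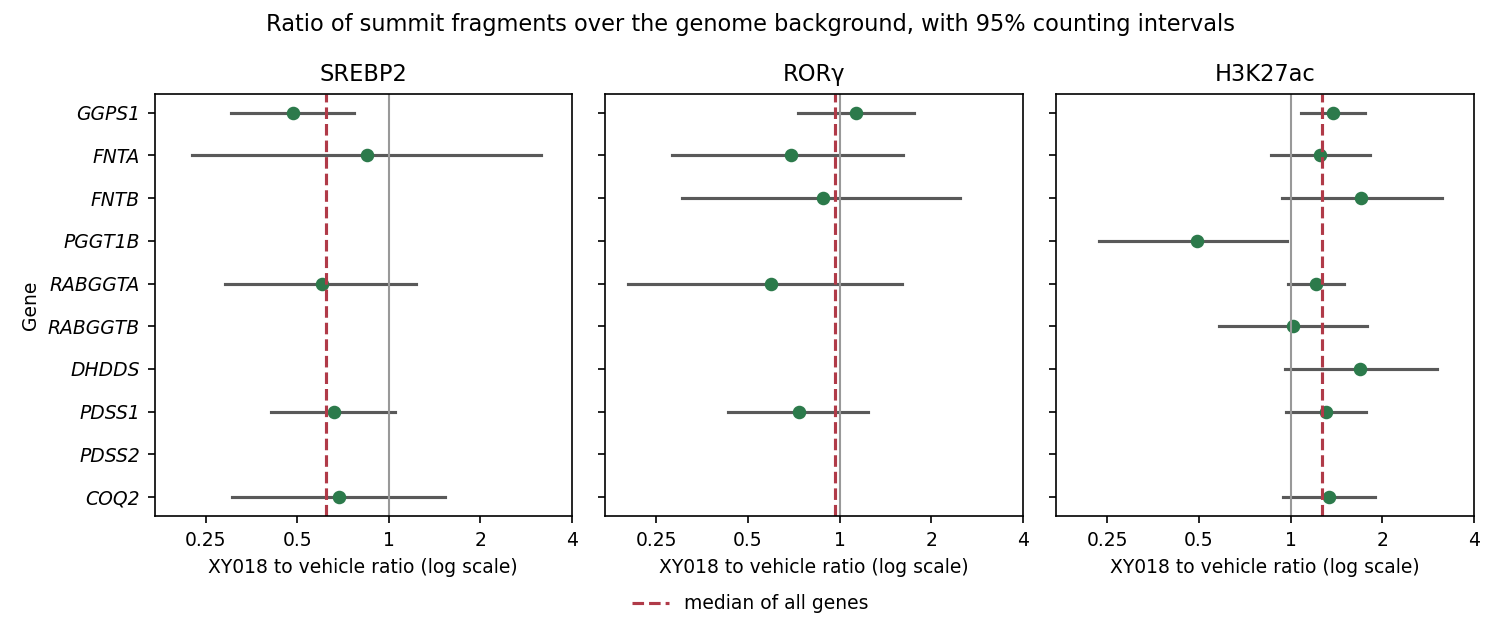
XY018 to vehicle ratio of summit fragments over the genome background (horizontal axes, log scale) for each gene with overlapping promoter regions in both treatments. Bars are 95% counting intervals, the solid line marks 1 and the dashed line the median over all promoters with such a pair, which was 0.621 for SREBP2, 0.967 for RORγ and 1.27 for H3K27ac. Every interval but that of PGGT1B for H3K27ac includes that median.

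Because several factor regions lay at minor internal starts, the regions at the acetylated part of each promoter were also counted. In the vehicle libraries, 7 of the 10 acetylated members had an SREBP2 region overlapping the promoter's H3K27ac region and 5 had a RORγ region, where 87.6% and 76.2% of all acetylated promoters had them. With XY018, 5 of 9 had SREBP2 and 5 of 9 had RORγ, where 80.1% and 76.1% of acetylated promoters had them. GGPS1, FNTA, RABGGTA, PDSS1 and COQ2 had both factors in both treatments. PGGT1B and PDSS2 had SREBP2 alone and with vehicle alone. At FNTB, RABGGTB and DHDDS no factor region overlapped an H3K27ac promoter region of the same treatment. The vehicle SREBP2 promoter regions of FNTB and DHDDS did overlap H3K27ac regions of the XY018 library.

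The same division ran along the level of acetylation. The 5 genes with both factors had 56 to 173 H3K27ac fragments with vehicle and the other 5 genes had 20 to 29, without overlap. This order was general, since 94.2% of the 7084 promoters with at least 56 H3K27ac fragments had both factors and 47.5% of the 3643 promoters with at most 29 did. The grouping and the level were both read from the same H3K27ac regions, so they are not independent. Whether the width of these regions contributed to the order was not tested. The factor pileups did not simply follow the mark, because RABGGTA had the most H3K27ac fragments but fewer SREBP2 and RORγ fragments than GGPS1 and PDSS1.

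**Figure D3:**
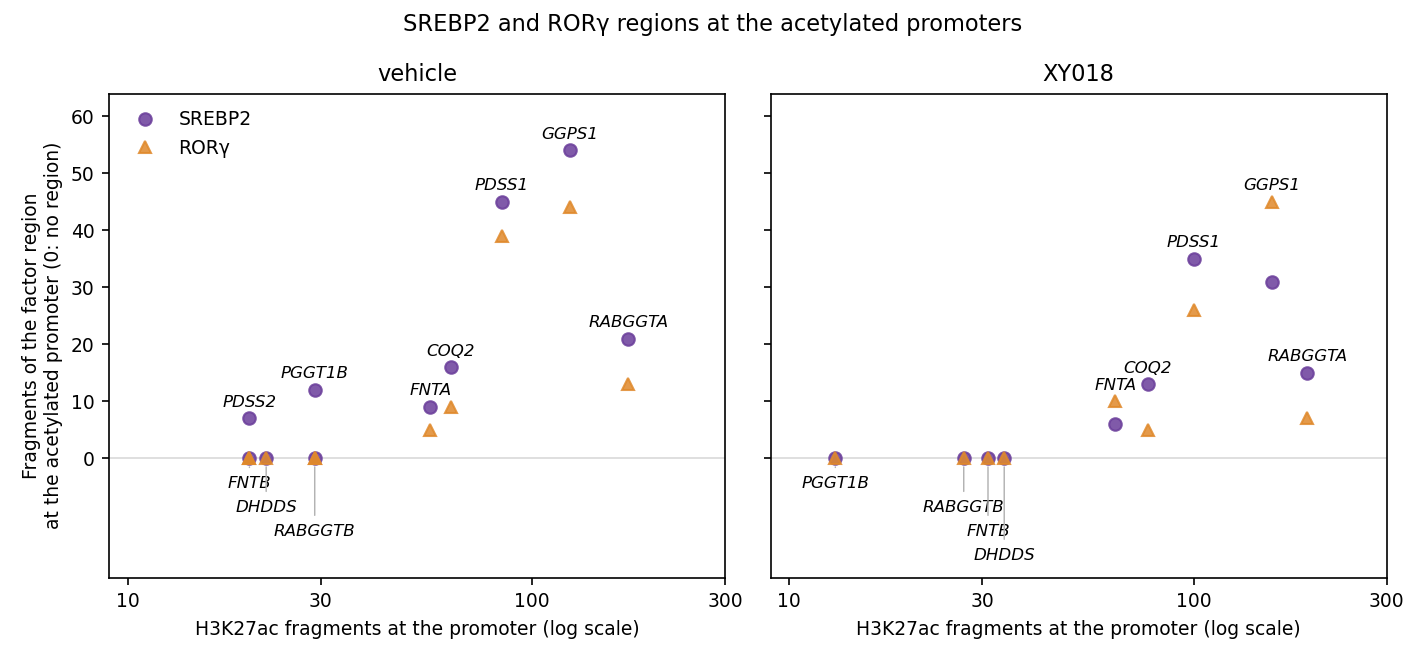
Fragments of the strongest SREBP2 (circles) and RORγ (triangles) region overlapping the acetylated promoter region of the same treatment (vertical axes, 0 where none overlapped it) against the H3K27ac fragments of that promoter (horizontal axes, log scale), by treatment. PDSS2 is absent from the XY018 panel because no H3K27ac promoter region was called there. FNTB, RABGGTB and DHDDS sit at 0 in both panels, and GGPS1 and PDSS1 at the top.

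Within each gene and 10 kb to either side, the vehicle and XY018 lists held 33 and 18 SREBP2 regions, 43 and 42 RORγ regions, and 58 and 72 H3K27ac regions. These counts had XY018 to vehicle ratios of 0.545, 0.977 and 1.24, and the same counts over all protein-coding genes gave 0.628, 0.812 and 1.10. The direction near the members depended on the length of the lists, since lists of equal length gave 1.20 for SREBP2 and 1.31 for RORγ, and RORγ regions in the genes alone gave 1.08. The equal-length values rest on 15 SREBP2 and 32 RORγ regions with vehicle. They have no value over all genes beside them, so whether this change is particular to the members was not tested. Per Mb, the members had 39.4 SREBP2 regions with vehicle and 51.4 RORγ regions, below the 68.2 and 80.3 of all genes, and 69.3 H3K27ac regions, against the 64.1 of all genes. Without PDSS2, the longest gene, a choice made after the data were seen, these were 56.9, 70.6 and 108 regions per Mb. Of the SREBP2 regions with vehicle, 10 of 33 overlapped an XY018 region, as did 16 of 43 for RORγ and 38 of 58 for H3K27ac, that is 30.3%, 37.2% and 65.5%. Near all protein-coding genes 47.2%, 44.6% and 71.8% of the vehicle regions did.

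DHDDS had the most SREBP2 regions with vehicle, 7, of which 1 overlapped a region with XY018. That region lay at the promoter of the neighbouring gene HMGN2 beyond the end of DHDDS, with SREBP2 at 43 and 34 fragments and a ratio of 0.670 (0.414 to 1.07), and RORγ at 25 and 14 fragments. The strongest SREBP2 region near FNTA was likewise at a neighbour, POMK, with 13 and 8 fragments, a ratio of 0.521 (0.187 to 1.36). Near RABGGTB, an SREBP2 region of 30 fragments was called at the MSH4 promoter with vehicle alone, beside RORγ regions of 10 and 11 fragments. These sites within 10 kb of a member therefore lay at promoters of other genes. Outside promoters, the region with the highest fold in each factor library was otherwise weak, with at most 12 fragments at GGPS1, FNTB, RABGGTA, PDSS1, PDSS2 and COQ2.

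PDSS2, which spans 307 kb, had 7 RORγ regions with vehicle and 9 with XY018 in its introns, and 0 of them overlapped between treatments. The ones with a recovered fragment number held 4 to 7 fragments each, and near all genes 20.4% of vehicle and 29.0% of XY018 RORγ regions of that strength overlapped one of the other treatment. FNTB had the most H3K27ac regions, 12 with vehicle and 21 with XY018, 15 of the latter in introns, and 10 of the vehicle regions overlapped an XY018 region. The overlapping H3K27ac pairs in FNTB had ratios from 0.822 to 1.70. In an intron of GGPS1, 10271 bp from its start, SREBP2 held 8 and 9 fragments, and RORγ 10 fragments with vehicle alone, without an H3K27ac region.

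**Figure D4:**
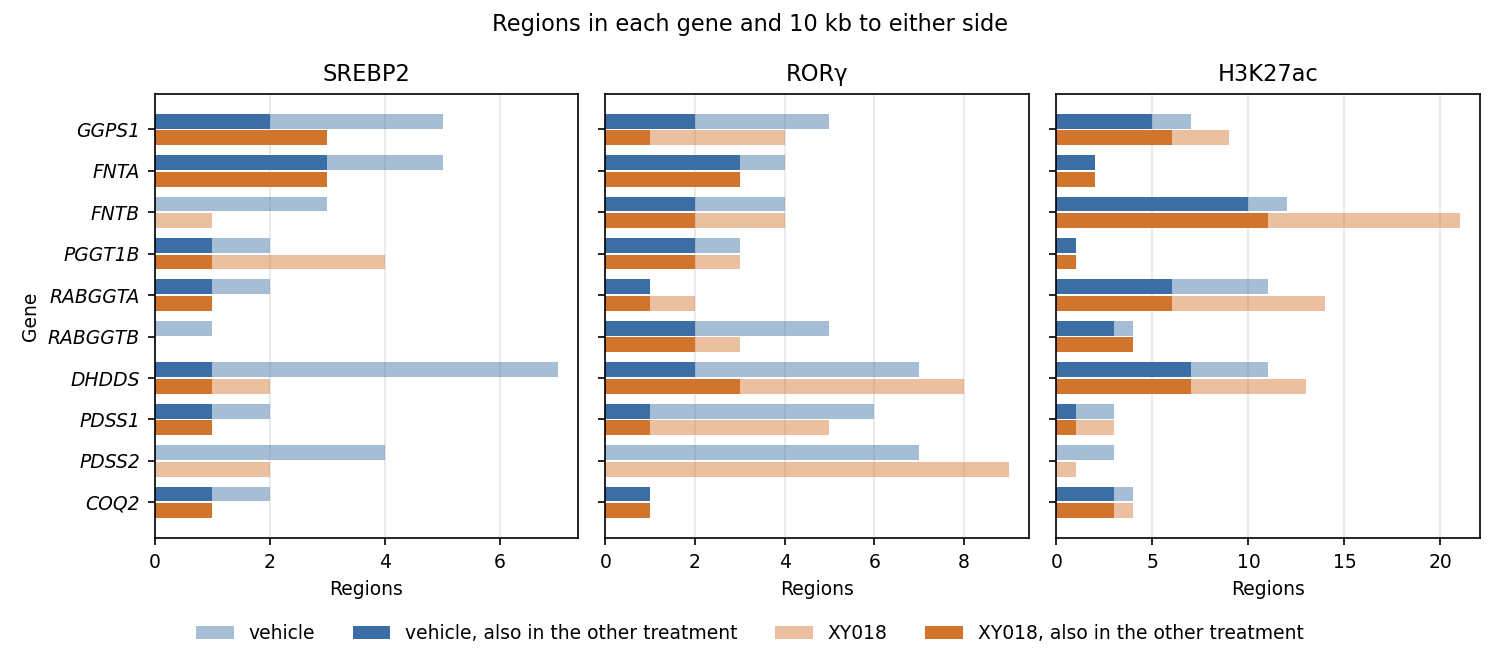
Number of regions (horizontal axes) in each gene and 10 kb to either side (vertical axis) for vehicle and XY018, with the regions that overlapped one of the other treatment in full colour. SREBP2 regions went from 7 to 2 at DHDDS, and H3K27ac regions from 12 to 21 at FNTB.

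Other genes that make, carry or receive isoprenoid groups gave a wider view. Of 42 such genes, SREBP2 was called at the promoters of 36 and 32 in the vehicle and XY018 libraries, RORγ at 30 and 30, and H3K27ac at 42 and 42. Over all protein-coding genes, 70.6% and 62.7% had an SREBP2 region, 62.7% and 61.5% a RORγ region, and 66.8% and 68% an H3K27ac region. The SREBP2, RORγ and H3K27ac ratios of the 42 genes had medians of 0.583, 0.889 and 1.19, with 31 of 32, 17 of 28 and 13 of 42 below 1. Over all paired promoters the medians were 0.621, 0.967 and 1.27, with 98.0%, 55.3% and 19.6% below 1.

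Among 10 genes of the ubiquinone ring and its transport, 8 had overlapping SREBP2 regions, all with a lower pileup with XY018 and a median ratio of 0.549. Of 20090 protein-coding genes, 12333 had overlapping SREBP2 regions. Over all these paired promoters 98.0% had a lower pileup, and the median was 0.621. The lowest was COQ7, a hydroxylase of the ring, with 27 and 11 fragments and a ratio of 0.345 (0.154 to 0.719). Its deposited fold did not follow, at 2.87 with vehicle and 3.07 with XY018, over local backgrounds of 8.76 and 2.91 fragments, and its H3K27ac went from 150 to 71 fragments. The highest was COQ8B, with 46 and 35 fragments and a ratio of 0.644 (0.403 to 1.02). COQ3, a ring methyltransferase, had no SREBP2 region, and COQ10B had one with vehicle alone.

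Among 9 genes of dolichol synthesis and use, 6 had overlapping SREBP2 regions with a median ratio of 0.543, against 0.621 over all paired promoters. NUS1, the partner of DHDDS in the cis-prenyltransferase, had the highest ratio, 1.27, with only 6 and 9 fragments and an interval of 0.404 to 4.34. SRD5A3, the polyprenol reductase, and DOLPP1, a dolichyl diphosphate phosphatase, shared the lowest ratio, 0.484. DPAGT1 and DPM3 had no SREBP2 region and DPM2 had one with vehicle alone. For RORγ, 1 of 4 ratios was below 1 and the median was 1.81, where 55.3% of all paired promoters were below 1 and their median was 0.967. DOLPP1 had 7 and 15 fragments and a ratio of 2.37 (0.909 to 6.87).

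Of 6 genes for escort and processing of prenylated proteins, 4 had overlapping SREBP2 regions, from RCE1 at 0.492 (0.259 to 0.907) to ICMT at 0.789 (0.537 to 1.16), the protease and the methyltransferase that finish the modified end. CHM, the Rab escort protein, and ZMPSTE24, the lamin A protease, had no SREBP2 region in either library. Of 14 genes for prenylated proteins, 13 had overlapping regions, from LMNB1 at 0.339 (0.158 to 0.681) to LMNA at 0.864 (0.569 to 1.31), and RAB5A had a region with vehicle alone. The median SREBP2 ratio was 0.583 for escort and processing and 0.605 for prenylated proteins, near the 0.621 over all paired promoters. Of the other users of isoprenoids, TRIT1 had an SREBP2 region with vehicle alone and COX10 had none. In the mevalonate pathway, which supplies the substrate, 6 of 8 genes had overlapping regions with a median SREBP2 ratio of 0.632, against 0.621 over all paired promoters. The lowest was IDI1 with 0.477, and PMVK and FDPS had no SREBP2 region.

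**Figure D5:**
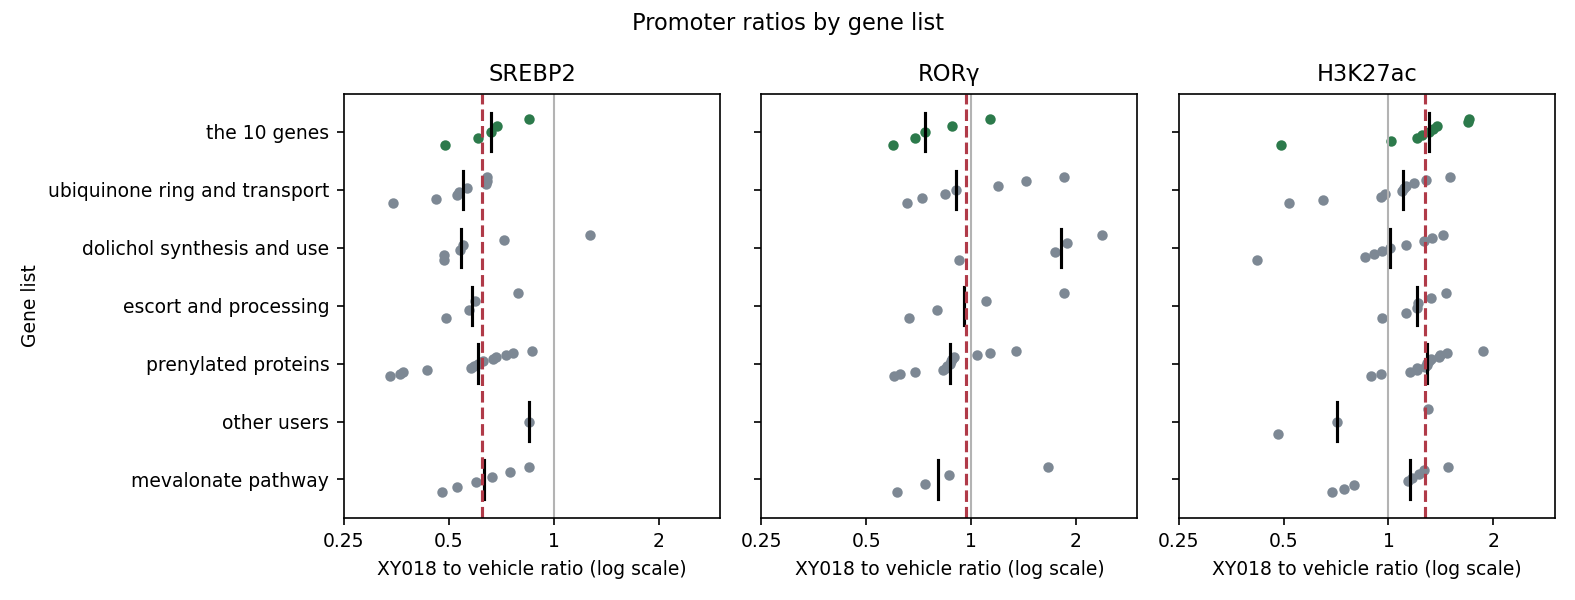
XY018 to vehicle ratio of summit fragments over the genome background (horizontal axes, log scale) for each gene with overlapping promoter regions, by gene list (vertical axis). Points are genes, short bars the median of a list, the solid line marks 1 and the dashed line the median over all promoters. The SREBP2 points lie below 1 for all plotted genes but NUS1.

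The genes of these lists whose fold enrichment over the 6 libraries was most like the median of the 10 members included COQ6 and RAB5A, at distances of 1.70 and 1.95 on the log2 scale over 6 libraries with an absent region set to 0. FNTA was the member nearest to that median, at 1.86, and PDSS2, PDSS1 and GGPS1 were the farthest, at 5.39, 4.99 and 4.97.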

How the data were processed

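ChIP-seq regions of the 6 immunoprecipitated libraries were analysed, and input samples (6) were not analysed. According to the methods of the study, tags were aligned to hg19 with BWA, filtered and deduplicated, and regions were called per library with MACS, while the submitters' processing notes name Bowtie2, MACS2 2.1.0 and bedtools. Which aligner made these files is therefore unsettled. Region numbers showed that both H3K27ac lists were parts of longer lists, and how they were shortened is not stated in the sources used here. Total tags per library were not analysed here.

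The deposited score was not used. The deposited fold, a ratio of summit pileup to local background with 1 added to each, and the −log10 p and −log10 q were made by the authors with MACS and were used as given. A region's whole number of fragments was solved from its fold and −log10 p, with a tolerance of 5% of the step between whole numbers and a local background of at least 0.7. The step was tested on simulated data, which did not include the lowest fragment numbers or the highest local backgrounds reported here. The commonest local background served as the genome background of a library, and tags per kb as that value over the fragment length, from 185 to 205 bp.

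Regions on chromosomes 1 to 22 and X were set against GENCODE 44 starts on GRCh37. At promoters, a pair was the overlapping vehicle and XY018 promoter regions with the highest summed fragments. Ratios have exact binomial (Clopper-Pearson) 95% intervals. Python 3.11.15, numpy 2.4.6, pandas 2.3.3, scipy 1.17.1, matplotlib 3.10.9 and samtools 1.23.1 were used. All members were named, and of the comparison lists those genes that lacked an SREBP2 region in a library or had the lowest or highest SREBP2 ratio, with the highest-fold factor region outside promoters and the genes starting within 1 kb of a member, except that COQ7 H3K27ac and DOLPP1 RORγ were chosen after their values were seen. Members and lists were chosen with earlier results of these data known. Of 13 cell type markers, 12 were found in the annotation. Some genes and 1 sequence that these rules would name are not reported here.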

Additional observations from a re-analysis of the deposited data

How the results depend on the processing

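Of 73 alternative values over 15 results, 3 were classed as reversed, 7 as moved in size and 63 as the same, but values classed as the same could still differ. With the summit required in the window, H3K27ac was counted at 8 members with vehicle and 6 with XY018, against 10 and 9. With lists of equal length, SREBP2 was counted at 6 members with vehicle and 5 with XY018, against 8 and 5. With regions of q at most 1e-05, SREBP2 was counted at 4 members with vehicle and 3 with XY018, and RORγ at 3 with XY018. With 5000 bp to either side of a start, SREBP2 with XY018 was counted at 8 members. RORγ with vehicle was counted at 5 members with starts of protein-coding transcripts, and also at 5 when the region had to overlap an H3K27ac region of the promoter, an alternative added after the data were seen. Apart from the overlap with H3K27ac, these counts have no share over all genes beside them. Scaling by tags per kb gave a median SREBP2 ratio of 0.730, and it cannot move RORγ or H3K27ac, whose libraries had equal fragment lengths. The number of regions near the members reversed with lists of equal length, to 1.20 for SREBP2 and 1.31 for RORγ, and for RORγ in the gene alone to 1.08. These alternatives hold fewer regions or shorter stretches, and the cause of the differences beyond that was not tested. No paired analysis was possible because each group was 1 library. Low fragment numbers limit most ratios of the members, and the rule by which the H3K27ac lists were shortened is unknown.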
